A study of Mus musculus with 8 samples.

Results

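Of the 168842 accessible regions measured in mouse embryoid bodies at day 4, 3241 (1.92%) lost signal in 2 successive comparisons of sorted FLK1+ mesoderm. The members were chosen by measured values: a region was kept when the log2 ratio of the group means, with 5 normalized reads added to each, was at most -1 from wild-type double positive to wild-type single positive cells, and again at most -1 from wild-type single positive to Etv2-induced single positive cells. The members are therefore more open in wild-type cells with PDGFRalpha than in those without it, and lower again when Etv2 is induced. All groups were taken at day 4 of differentiation, so the 2 steps order groups of cells and not times. Nearly all members (99.97%) were 401 bp wide.

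Accessibility was measured by ATAC-seq, where a transposase, Tn5, tags open chromatin with sequencing adapters, in 4 groups of 2 libraries with 50000 sorted live cells each. WT DP (PDGFRalpha+FLK1+) and WT SP (PDGFRalpha-FLK1+) came from A2lox.Cre embryonic stem cells of wildtype genotype, with no treatment named. OE SP was PDGFRalpha-FLK1+ cells of the iETV2 line, treated with 2 µg/ml doxycycline from day 2.5 to overexpress Etv2. KO DP was sorted PDGFRalpha+FLK1+ from a line with the Etv2 knockout, also with no treatment named. Each genotype is a single line, so an effect of Etv2, the line and, for OE SP, doxycycline cannot be told apart. Separate cultures within a group are not stated in the labels, and the p-values here describe the spread between libraries, part of which may be technical. One region at the Etv2 gene, chr7:30633790-30634190, held 0 reads in both knockout libraries. There WT DP held 124 and 98.8 normalized reads, WT SP held 94.7 and 89.2 and OE SP 75.9 and 63.1. Another region at the gene, chr7:30636355-30636755, was not empty in the knockout, with 199.8 and 192.5 normalized reads against 133 and 109.6 for WT DP. WT SP libraries measured 144.5 and 147.7 at this second region, and OE SP libraries 159 and 290.4. No region of Etv2 is a member.

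FLK1, the VEGF receptor encoded by Kdr, marks early mesoderm that can form vessels, blood, heart and muscle. PDGFRalpha is kept by cells on the way to paraxial and cardiac mesoderm and is lost by cells on the way to endothelium and blood. ETV2 is an ETS family transcription factor required for the endothelial and blood fates. Paraxial mesoderm forms from the primitive streak under WNT and FGF signals, and T-box and bHLH factors such as TBX6, MSGN1 and MESP2 then specify it and cut it into somites.

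Few members lay at a gene start, and among these were the starts of several segmentation genes. The promoter table of RefSeq for GRCm38.p6 (mm10) covers 250 bases before to 50 after each start. Of 3129 members on the chromosomes in this table, 36 (1.15%) overlapped a promoter window, against 7.53% of all regions on the same chromosomes. The bases upstream of the start that lie within a member are given below for 3 segmentation genes and for Bcar3. Msgn1 encodes a bHLH factor of presomitic mesoderm, Mesp2 a bHLH factor that sets segment borders, and Ripply1 a repressor that ends the segmentation program. Bcar3, an adaptor protein in adhesion signalling, had the highest WT DP signal among protein-coding genes with a promoter in a member. These were chosen after their values were seen. Capitals mark the T-box core GTGTGA or its complement TCACAC, and the TCF and LEF motif CTTTGA or its complement TCAAAG.
Msgn1 (chr12:11208949-11209198, minus strand): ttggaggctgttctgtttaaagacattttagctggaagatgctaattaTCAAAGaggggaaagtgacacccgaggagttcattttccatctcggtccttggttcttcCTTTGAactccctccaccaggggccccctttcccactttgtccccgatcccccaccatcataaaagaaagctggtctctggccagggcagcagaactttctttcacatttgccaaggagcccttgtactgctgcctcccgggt
Mesp2 (chr7:79810677-79810726, plus strand): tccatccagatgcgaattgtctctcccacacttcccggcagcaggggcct
Ripply1 (chrX:139782461-139782603, minus strand): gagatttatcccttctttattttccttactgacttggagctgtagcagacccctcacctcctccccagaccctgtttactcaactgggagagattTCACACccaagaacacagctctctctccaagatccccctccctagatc
Bcar3 (chr3:122483319-122483560, plus strand): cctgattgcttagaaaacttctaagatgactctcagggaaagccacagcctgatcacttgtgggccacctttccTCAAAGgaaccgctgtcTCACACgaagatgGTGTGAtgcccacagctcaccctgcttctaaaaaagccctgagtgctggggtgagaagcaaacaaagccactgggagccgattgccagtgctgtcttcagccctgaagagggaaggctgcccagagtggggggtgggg
The Msgn1 stretch held the TCF and LEF motif on each strand and no T-box core. The Ripply1 stretch held 1 T-box core, Bcar3 held 2 T-box cores and 1 TCF and LEF motif, and the 50 bases at Mesp2 held neither.

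The 36 members touched 40 promoter windows. One member lies at the starts of a pair of genes, and a few windows of 2010203P06Rik and Gm52874 are nearly the same sequence, so the shares below count some stretches more than once. In all, 13 motifs were searched on both strands, over the 250 bases upstream of each start and not only the bases within a member. The windows of Gm41168 and Gm31641 shared 0 upstream bases with their members, so the shares do not describe the sequence of the members alone. The T-box core was in 25% of the 40 windows, against 9.91% of the 14787 windows covered by any region and 12.3% of all 32851. The TCF and LEF motif was in 22.5%, 10.4% and 13.8%. The GATA motif AGATAA was in 17.5%, 6.37% and 9.99%, and the AP-1 motif TGANTCA in 17.5%, 4.79% and 6.75%. The E-box CANNTG, bound by bHLH factors, was in 87.5%, 58.9% and 66.2%. The ETS core GGAAGT, in contrast, was in 12.5% of the member windows, 21.9% of the covered ones and 19.7% of all. A second T-box motif, AGGTGT, was in 15%, 9.99% and 11.8%, while the SNAI and ZEB box CAGGTG, itself an E-box, was in 15%, 16.2% and 17.2%, and the TEAD motif GGAATG in 10%, 10.9% and 12.6%. The SOX motif ACAATG was in 10%, 6.32% and 10.7%, the FOX motif TGTTTA in 12.5%, 7.61% and 12.0%, the HOX and CDX motif TTTATG in 7.5%, 5.82% and 10.8%, and the RBPJ motif GTGGGAA in 7.5%, 5.32% and 5.42%. The latter T-box motif and the SNAI and ZEB box can overlap. These are shares of letters in windows, with no test. The member windows were also lower in GC, at 50.9% ± 5.01 (SD over 40 windows) against 59.9% for the covered windows, and held 3.10 CG dinucleotides on average against 15.5.

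In normalized reads (reads per region after the authors' scaling), the median member measured 112 and 114 in WT DP, then 39.7 and 40.6 in WT SP, then 10.2 and 9.20 in OE SP. The KO DP libraries, which the rule did not use, measured 102 and 95.1. The median of all regions was 29.9 to 36.7 in the 8 libraries, so the members stood above the typical region in both DP groups, near it in WT SP and below it in OE SP. Members took 3.09% and 3.19% of the reads in regions in WT DP, against 1.02% and 1.08% in WT SP and 0.348% and 0.275% for OE SP. In KO DP they took 2.96% and 2.92%. In these bulk samples, fewer cells with an open region and less signal per cell cannot be told apart. The libraries held 12477601 to 18853733 reads in regions. Of the members, 4 had 0 reads in OE SP replicate 1 and 64 in replicate 2, which was sequenced less deeply, and 1 had 0 in both.

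**Figure D1:**
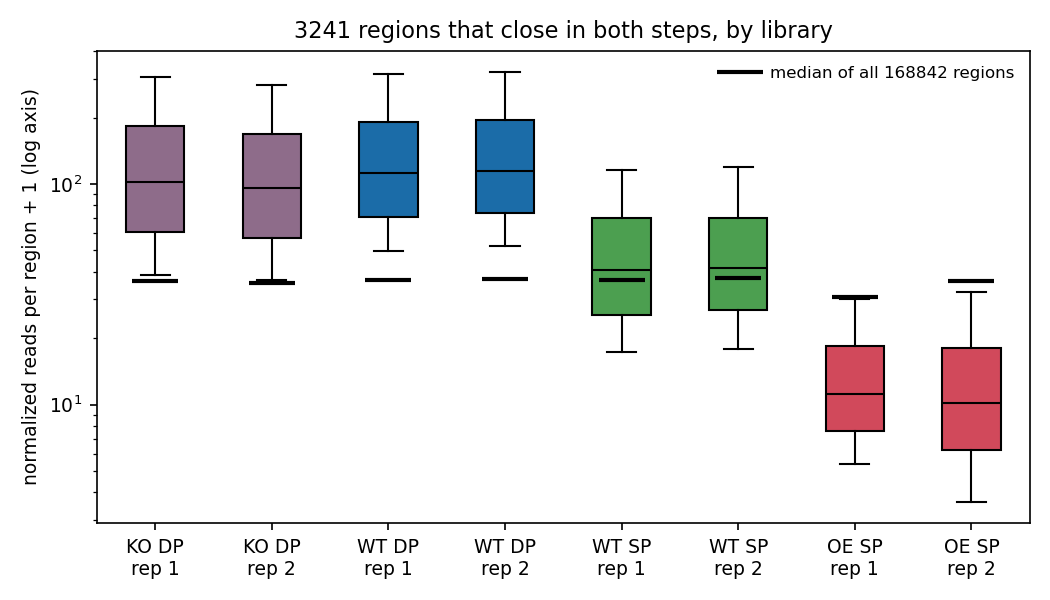
Normalized reads plus 1 (log axis) of the 3241 members in each of the 8 libraries. Boxes span the quartiles with the median as a line, whiskers reach the 10th and 90th percentiles, and the thick marks are the medians of all 168842 regions. The KO DP and WT DP boxes lie together, with medians of 95.1 to 114 normalized reads before 1 is added, WT SP lies lower and OE SP lowest.

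The first step, from WT DP to WT SP, had a median log2 ratio of -1.28 and ran from -3.13 to -1.0. The second, from WT SP to OE SP, had a median of -1.45 and ran from -3.33 to -1.0. Their sum had a median of -2.84 and reached -5.13. The second step was the larger in 2001 members (61.7%) and the first in 1240. In 403 members both steps were at most -1.5, and in 21 both were at most -2. Members of high WT DP signal fell further: the median first step was -1.18 in the 811 members of lowest WT DP mean and -1.38 in the 810 of highest, and the median second step -1.19 and -1.87. With 5 reads added, a low region can show only a limited ratio. By limma, 3195 members were called lower in the first step (98.6%, against 8.12% of all regions tested) and 3237 in the second (99.9%, against 31.9%). None was called higher in either, against 6.20% and 16.6% of all regions. The members were chosen by these group means, so the calls are a description.

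**Figure D2:**
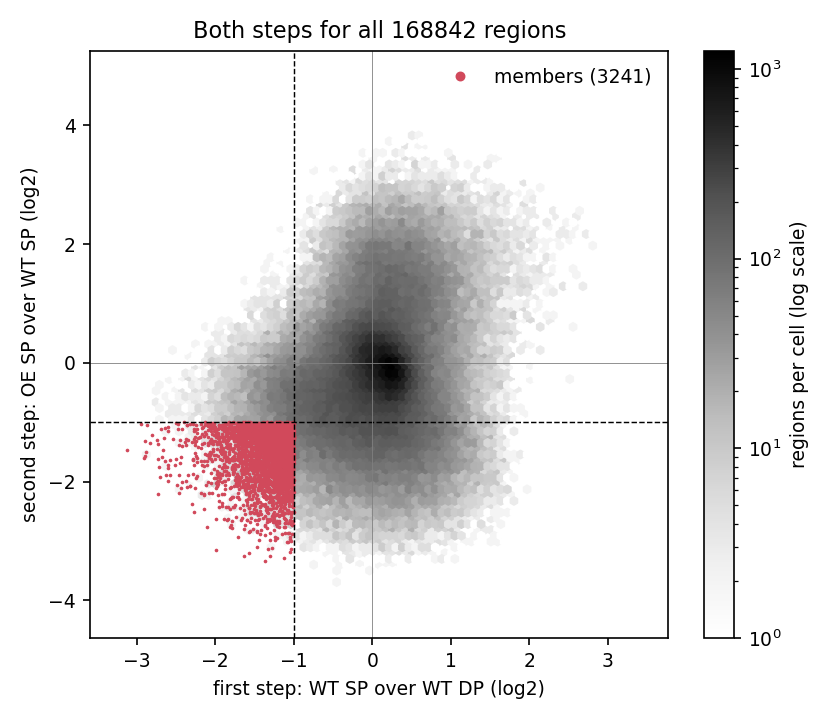
Log2 ratio of the second step (OE SP over WT SP) against the first (WT SP over WT DP) for all 168842 regions, as a density on a log colour scale, with members in red. The dashed lines are the rule's thresholds of -1, and the members fill the lower left corner down to -3.13 and -3.33.

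Separate libraries followed the steps in nearly every member, which the rule on group means largely fixes. WT DP and WT SP libraries did not overlap in any of the 3241, and WT SP and OE SP libraries did not overlap in 3239. Over all regions these shares were 26.8% and 45.8%, given as a description only. The 2 exceptions, named after their values were seen, were low regions. In Ttc7b at chr12:100303225-100303625 the WT SP libraries measured 8.14 and 37.7 and the OE SP libraries 7.29 and 9.20. A region 117 kb from Cdk6 at chr5:3223159-3223559 measured 5.09 and 22.8 and 6.57 and 1.31. The OE SP libraries were the less alike pair over all regions, with a correlation of log2 values of 0.937 against 0.975 to 0.978 in the other groups. Among the members their widest split was at chr1:134152864-134153264, 1.32 kb from Chit1, a chitinase gene, with 4.38 and 118 in OE SP against 242 and 255 in WT SP.

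The largest summed fall lay in Kcnd3, which encodes a potassium channel. This region, chr3:105494831-105495231, measured 679.5 and 683 normalized reads in WT DP, then 145 and 191 in WT SP, then 9.48 and 19.7 in OE SP, against 699 and 576 in KO DP. The most open member of all was in Tenm4, a teneurin adhesion protein, at chr7:96440375-96440775, with 1250.3 and 1227 in WT DP, then 248 and 258 in WT SP, then 46.7 and 34.2 in OE SP, against 1185 and 1076 in KO DP. In both regions the knockout libraries lay near the WT DP libraries and far above WT SP. In Grm8, a glutamate receptor, chr6:28102932-28103332 measured 320.3 and 387 in WT DP, then 45.8 and 52.5 in WT SP, then 10.9 and 2.63 in OE SP, against 222 and 222 in KO DP. In Sergef, chr7:46454426-46454826 measured 406 and 432 in WT DP, then 71.2 and 73.4 in WT SP, then 16 and 7.88 in OE SP, against 527 and 485 in KO DP, with the knockout above WT DP. A region 11.7 kb from Klhl31, a gene expressed in muscle, measured 179 and 203 in WT DP, then 41.7 and 27.8 in WT SP, then 1.46 and 3.94 in OE SP, against 211 and 209 in KO DP at chr9:77624643-77625043. The other 5 regions of the 10 largest falls lay 71070 bp from Mrpl46, 70666 bp from Lrp12, in Tenm4 again, and 151 kb from Tns1 and 598 kb from Arpp21. Over these 5, WT DP means ran from 225 to 598 and OE SP means from 4.23 to 15.8. By limma none of the 10 was called between KO DP and WT DP, with 2 at an unadjusted p below 0.05, and edgeR and DESeq2 called 0. Limma called 6.29% of all members lower and 0.895% higher, against 2.21% and 1.72% of all regions tested.

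Regions on either side of a threshold differ little in the ratio that the rule used, though their levels can differ. The region just inside the first threshold near Kif26a measured 132 and 129 in WT DP, then 67.2 and 58.5 in WT SP, then 21.9 and 25 in OE SP, against 154 and 149.7 in KO DP, and one just outside it, in Lrfn2, 111 and 134 in WT DP, then 48.9 and 68.4 in WT SP, then 13.1 and 19.7 in OE SP, against 108 and 87.9 in KO DP. At the second threshold, a member in Foxp4 measured 182 and 187 in WT DP, then 47.8 and 48.6 in WT SP, then 18.2 and 25 in OE SP, against 168 and 169 in KO DP, and a region just outside, in Foxn3, 55.3 and 47.6 in WT DP, then 13.2 and 19.8 in WT SP, then 3.65 and 7.88 in OE SP, against 30.2 and 35.7 in KO DP.

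The KO DP libraries give a view of the members that the rule did not use. In cells without Etv2 that kept PDGFRalpha, most members were as open as, or a little less open than, in wild-type DP cells. The KO DP mean lay between WT SP and WT DP in 2150 members (66.3%), above WT DP in 1006 (31.0%) and below WT SP in 85 (2.62%). Against WT SP, limma called 2557 members higher in KO DP (78.9%, against 10.4% of all regions tested) and 18 lower (0.555%, against 14.8%). The median log2 difference was 1.14, against -0.17 over all regions. Both KO DP libraries exceeded both WT SP libraries in 3051 members (94.1%, against 26.3% of all regions), and both lay below both in 48 (1.48%, against 44.5%). WT SP was the low side of the rule's first step, so members lean towards a rise here. The regions that closed in the first step only had the same median of 1.14.

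Against WT DP, limma called 204 members lower in KO DP (6.29%, against 2.21% of all regions tested) and 29 higher (0.895%, against 1.72%). The median difference was -0.19, against -0.07 over all regions. WT DP was the high side of the rule, so the members lean low in this comparison, and the shares in sets with a like or other choice are given for comparison without a test. Among regions that closed in the first step only, 3.65% were called lower, among those that closed in the second only 2.89%, and among those that opened in both 1.00%. The median differences of these sets were -0.19, the same as in the members, -0.01 and 0.09. The sets also differ in signal, with a median WT DP mean of 113 in the members against 42.9, 50.4 and 9.76. The part of signal level in the shares called was not tested. KO DP libraries lay wholly below WT DP in 1729 members (53.3%, against 34.3% of all regions) and wholly above in 588 (18.1%, against 23.6%). The count of 204 fell to between 29 and 42 on leaving out any KO DP or WT DP library, and rose to 1010 when the 2 groups were fitted alone and to 809 or 827 without OE SP replicate 1 or 2. The 29 higher calls moved the same way, to 3 to 5, to 273, and to 185 or 190.

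**Figure D3:**
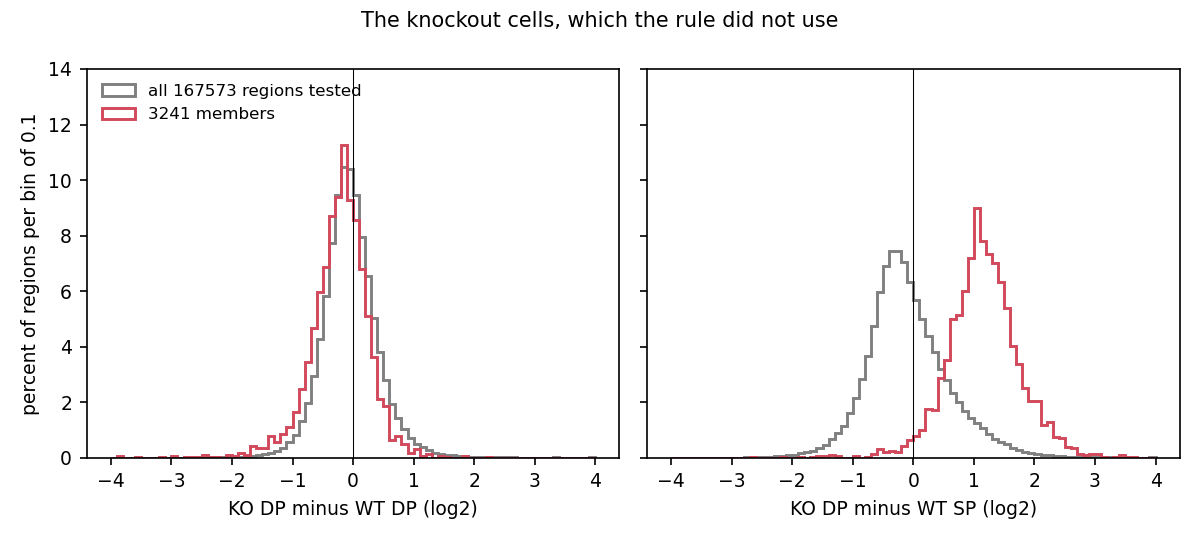
Log2 difference of KO DP from WT DP (left) and from WT SP (right) in the limma fit, as percent of regions per bin of 0.1, for the 3241 members (red) and all 167573 regions tested (grey). Values beyond 4 are drawn in the outermost bins. The members centre on -0.19 against WT DP and on 1.14 against WT SP.

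The called falls had a median of -1.21, and 155 of the 204 were at least 2-fold. In 79 of them the KO DP mean was below that of WT SP, and in 5 below that of OE SP. The largest lay 40.2 kb from Gcnt1, a glycosyltransferase gene. This region, chr19:17285553-17285953, measured 131 and 178 normalized reads in WT DP, then 39.7 and 46.6 in WT SP, then 5.11 and 7.88 in OE SP, against 5.04 and 7.13 in KO DP (log2 difference -3.84, SE 0.26, limma adjusted p = 9.77e-06). The knockout libraries there were as low as those with induced Etv2. A region 417 kb from Fhit, chr14:9132626-9133026, measured 362 and 335 in WT DP, then 147 and 155 in WT SP, then 16 and 26.3 in OE SP, against 21 and 19 in KO DP (log2 difference -3.82, SE 0.22, limma adjusted p = 3.06e-06). Falls of -3.54, -3.13 and -2.98 followed near D1Pas1, 235 kb from Gadl1 and 141 kb from Gfra2. These 5 calls held under each alternative run.

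A stretch of chromosome 4 from 85 to 105 Mb, known from earlier results to be lower in the knockout line, held 35 members, of which 18 were called lower (51.4%, against 20.3% of all 1358 regions tested there). Outside it 186 of 3206 members (5.80%) were called lower, against 2.06% of all regions outside it. Ror1, a WNT receptor, lies in this stretch, and its member chr4:100382682-100383082 measured 264 and 282 in WT DP, then 88.5 and 102 in WT SP, then 24.1 and 25 in OE SP, against 120.1 and 96.3 in KO DP (log2 difference -1.30, SE 0.19, limma adjusted p = 0.00279), a call lost without KO DP replicate 2 or either WT DP library. So do all 8 members of Dab1. On the X chromosome limma called 0 of 56 members, against 1.31% lower and 1.15% higher among all regions tested there. At an unadjusted p below 0.05 there were 4, and edgeR and DESeq2 called 0.

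The 29 rises had a median of 1.07. The largest lay 6.39 kb from Trim62, at chr4:128877250-128877650, and measured 70.9 and 72.8 in WT DP, then 31.6 and 26.8 in WT SP, then 11.7 and 5.26 in OE SP, against 369 and 377 in KO DP (log2 difference 2.30, SE 0.24, limma adjusted p = 0.000278). Chromosome 8 held 7 of the 29 rises among its 189 members (3.70%, against 4.70% of all regions tested on this chromosome). The median difference there was 0.01 over its members and 0.13 over all its regions. They included regions near A230072I06Rik (288 and 290.0 in KO DP against 68.9 and 85.3 in WT DP) and in Wwox, an oxidoreductase gene at a fragile site (437 and 389.8 against 120.4 and 108). A region 152 kb from Fut10 was also on chromosome 8 (286 and 253 against 86.4 and 94.3). The region in Prkg1, a cGMP-dependent kinase of smooth muscle, measured 145 and 144 against 47.6 and 50.3. The Prkg1 call was lost when any 1 of the 4 DP libraries was left out, and the Fut10 call without KO DP replicate 1 or WT DP replicate 1.

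By position, the members were mostly distal. Only 79 (2.44%) lay within 1 kb of an end of a protein-coding gene, against 11.3% of all regions. Another 1488 (45.9%) lay inside a gene, the same share as all regions, and 652 (20.1%) lay beyond 100 kb of any, against 10.7%. Regions that closed in the first step only were placed alike, with 2.49% at gene ends and 20.1% beyond 100 kb. Those that closed in the second step only and those that opened in both had 13.8% and 12.7% beyond 100 kb. The median distance to a transcription start was 36157 bp for members and 21116.5 bp for all regions. By chromosome, members were 1.57% (chromosome 17) to 2.24% (chromosome 9) of the autosomal regions and 1.71% of those on X. One member overlapped a microRNA hairpin, 1 of 1005 in the RefSeq table.

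**Figure D4:**
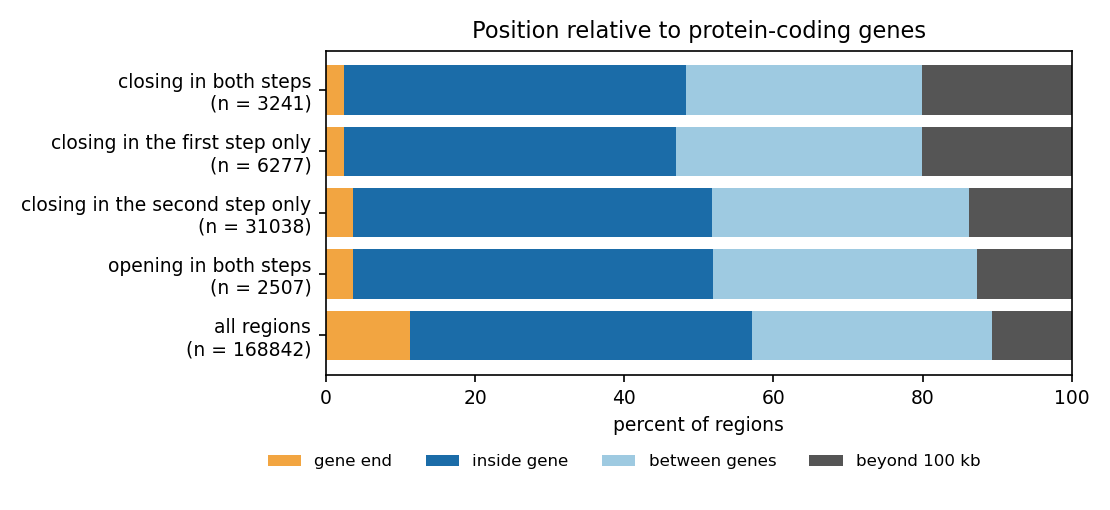
Percent of regions at a gene end (within 1 kb), inside a gene, between genes (within 100 kb) and beyond 100 kb, for the members, 3 comparison sets and all regions. The members and the regions that closed in the first step only have the smallest gene-end shares, 2.44% and 2.49%, and the largest shares beyond 100 kb, 20.1% in both.

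A gene within 100 kb was found for 2589 members, and these fell on 1864 genes. Of these genes, 452 had at least 2 members and 36 at least 5. The 8 genes taken as having most members had 54 to 140 regions each, of which 8.51% (Dab1) to 13.0% (Gabbr2) were members. Asic2, with 7 of 85 regions (8.24%), tied with Gabbr2, Slc39a11 and Cdh13. It was left out because ties went to genes with fewer regions. Auts2, linked to neural development, had 17 members of 140 regions over 971 kb. Their WT DP means ran from 40.8 to 632 and their OE SP means from 0 to 28.4. Tenm4 and Tenm2, both teneurins, had 11 of 114 and 9 of 82. Ntm, a neural adhesion protein, had 8 of 90, Dab1, an adaptor of reelin signalling, 8 of 94, and Gabbr2, a GABA receptor, 7 of 54. Slc39a11, a zinc transporter, had 7 of 75 and Cdh13, a cadherin, 7 of 79. None of the regions of Tenm4, Tenm2, Ntm, Dab1, Gabbr2 or Slc39a11 opened in both steps, while 1 of Auts2 and 2 of Cdh13 did. Such regions were also few over the whole set, 2507 of 168842. The genes were picked for their closing regions, so these counts are a description. In the knockout, 3 members of Dab1, 2 of Gabbr2, 1 of Tenm4 and 1 of Slc39a11 were called lower, and 2 of Auts2 and 1 of Cdh13 higher. Over all members 6.29% were called lower and 0.895% higher, against 2.21% and 1.72% of all regions tested. Dab1 lies in the stretch of chromosome 4 given above, where 20.3% of all regions were called lower. Cdh13 lies on chromosome 8, where 4.70% of all regions were called higher.

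Members also lay in short runs with gaps of at most 25 kb. There were 297 runs of at least 2, holding 662 members, and 12 runs of at least 4. The longest, in Gabbr2 at chr4:46825061-46906741, held 6 members among 19 regions. Sfrp1, a secreted WNT antagonist, had 4 members in chr8:23427395-23452246, and these were all the regions in that span. The 4 had WT DP means of 156 to 317, WT SP means of 40.1 to 123 and OE SP means of 7.37 to 34.8. Their KO DP means of 190.1 to 393 were each above WT DP. By limma 0 of the 4 were called, with 1 at an unadjusted p below 0.05, while edgeR called 1 higher and DESeq2 0. Sfrp1 lies on chromosome 8, where the differences of all regions are shifted upward as given above, and its part in these values was not tested. A run of 4 among 6 regions lay at Cd93, a surface receptor of endothelial and blood cells. The Cd93 member of highest signal, chr2:148444400-148444800, measured 680.5 and 668 in WT DP, then 269.7 and 300.4 in WT SP, then 43 and 35.5 in OE SP, against 575 and 523 in KO DP. A further one, 15.5 kb from the gene at chr2:148459022-148459422, measured 207 and 228 in WT DP, then 30.5 and 60.5 in WT SP, then 4.38 and 3.94 in OE SP, against 231 and 166 in KO DP. Over all 19 regions assigned to Cd93 the median second step was 0.13, and 1 region opened in both steps. Slit1, Lingo1 and Galnt18 held runs of 5, 5 and 4.

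Paraxial mesoderm and segmentation genes had 16 members among 280 regions (5.71%), against 1.92% over all regions, at 12 of the 22 genes listed. Within 10 kb of the genes the share was 7.93%, against 1.59%. The member at the start of Mesp2, chr7:79810677-79811077, measured 829 and 785 normalized reads in WT DP, then 279.9 and 284 in WT SP, then 112 and 93.3 in OE SP, against 537 and 547 in KO DP. Each group lay apart from the others, with KO DP between WT DP and WT SP. The difference from WT DP missed the threshold (log2 difference -0.57, SE 0.15, limma adjusted p = 0.0615). Next to it, 2.59 kb from Mesp1, the bHLH factor of early cardiac mesoderm, chr7:79789249-79789649 measured 845 and 846 in WT DP, then 381 and 348 in WT SP, then 104 and 121 in OE SP, against 869.9 and 801 in KO DP, and here the knockout matched WT DP. The end of Mesp1 itself at chr7:79793178-79793578 is no member, with 373 and 397 in WT DP, then 368 and 319 in WT SP, then 193 and 184 in OE SP, against 341 and 328 in KO DP.

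The member at Tbx6, a T-box factor that specifies paraxial mesoderm, lies 3.81 kb from the start, at the other end of the gene. This region, chr7:126785094-126785494, measured 669.8 and 640.4 in WT DP, then 224 and 234 in WT SP, then 81.7 and 80.1 in OE SP, against 744 and 601 in KO DP, and the KO DP libraries lay on both sides of the WT DP pair. At the Msgn1 promoter printed above, chr12:11208831-11209231, the libraries measured 242 and 243 in WT DP, then 96.7 and 125 in WT SP, then 25.5 and 26.3 in OE SP, against 109 and 126 in KO DP. There KO DP was as low as WT SP (log2 difference -1.02, SE 0.19, limma adjusted p = 0.0125), a call lost when any 1 of the 4 DP libraries was left out. At the Ripply1 promoter, chrX:139782461-139782861, the libraries measured 496 and 504 in WT DP, then 199 and 219 in WT SP, then 46.7 and 49.9 in OE SP, against 471 and 450.4 in KO DP, and the knockout lay just below WT DP. The start of Ripply2, a related gene, did not close by 2-fold in either step, with 269 and 276 in WT DP, then 230.0 and 213 in WT SP, then 147 and 189 in OE SP, against 215 and 212 in KO DP.

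Foxc1, a forkhead factor of paraxial and cardiovascular mesoderm, had 2 members. One, 8.37 kb from the gene at chr13:31797876-31798276, measured 492 and 513 in WT DP, then 145 and 162 in WT SP, then 23.3 and 25 in OE SP, against 343 and 314 in KO DP. The other, 46.0 kb away at chr13:31760230-31760630, measured 515 and 548 in WT DP, then 138 and 178 in WT SP, then 27 and 82.8 in OE SP, against 557 and 461 in KO DP. The start of Foxc1 at chr13:31806363-31806763 did not close, with 377 and 379 in WT DP, then 476 and 434 in WT SP, then 390.3 and 443 in OE SP, against 336 and 396 in KO DP. Notch1, a receptor of the segmentation clock, had a member at chr2:26486910-26487310 with 583 and 596 in WT DP, then 171 and 171 in WT SP, then 63.5 and 70.9 in OE SP, against 369 and 364 in KO DP (log2 difference -0.68, SE 0.15, limma adjusted p = 0.0322). That call was lost with DESeq2, with the replicate block and on leaving out any 1 of the 4 DP libraries. A region 1.69 kb from Lfng, the glycosyltransferase that modifies Notch in the clock, measured 213 and 198 in WT DP, then 94.7 and 105 in WT SP, then 32.8 and 47.3 in OE SP, against 159.5 and 149.7 in KO DP. The members in Pax3 and Pax7, factors of muscle and neural crest, measured 277 and 315 and 314 and 339 in WT DP and 27 and 40.7 and 40.9 and 35.5 in OE SP. In Aldh1a2, the enzyme that makes retinoic acid, chr9:71231959-71232359 measured 151 and 161 in WT DP, then 30.5 and 40.6 in WT SP, then 7.29 and 2.63 in OE SP, against 94 and 95.1 in KO DP. Regions near Meox1 and Rspo3 completed the list. In all, 2 of the 16 were called in KO DP against WT DP, both lower, a count too small to set apart from the 6.29% of all members. Of all regions tested, 2.21% were called lower.

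**Figure D5:**
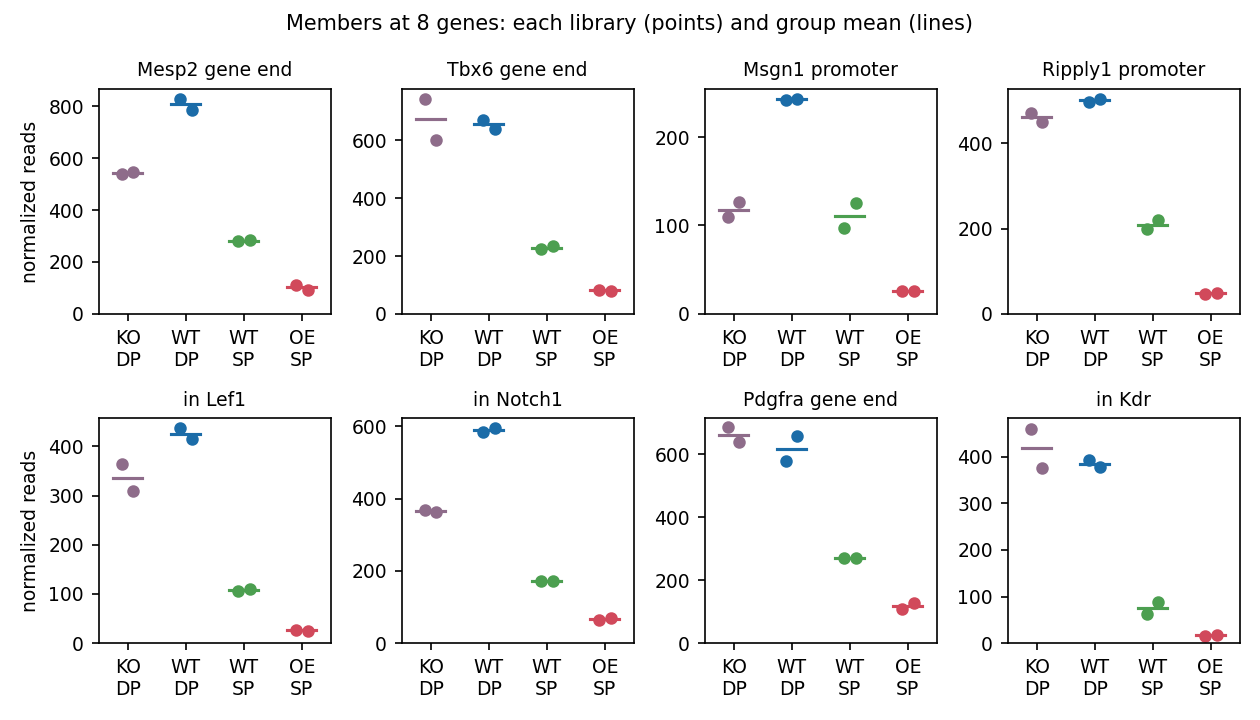
Normalized reads in each library (points) and group mean (lines) for members at 8 genes, each panel with its own axis from 0. WT DP, WT SP and OE SP step down in each by the rule. KO DP lies near WT DP at Tbx6, Ripply1, Pdgfra and Kdr, between WT DP and WT SP at Mesp2, Lef1 and Notch1, and with WT SP at Msgn1.

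The regions of streak and nascent mesoderm genes held 11 members of 244 (4.51%), with 3 near Lhx1 and 2 each at Axin2 and Wnt3. Within 10 kb of these genes 3.36% were members, against 1.59% of all regions. None lay at a gene end. The strongest near Lhx1, a LIM homeobox factor, was 76.9 kb away at chr11:84602395-84602795 and measured 481 and 416 in WT DP, then 156 and 172 in WT SP, then 45.2 and 49.9 in OE SP, against 526 and 406 in KO DP. Near Axin2, a feedback inhibitor and target of WNT signalling, chr11:108897576-108897976 measured 419 and 452 in WT DP, then 162 and 183 in WT SP, then 33.6 and 52.6 in OE SP, against 366 and 387 in KO DP. In Wnt3, the ligand that starts the streak, chr11:103808546-103808946 measured 530.0 and 479 in WT DP, then 223 and 225 in WT SP, then 96.3 and 76.2 in OE SP, against 264 and 267 in KO DP, and KO DP was called lower (log2 difference -0.91, SE 0.17, limma adjusted p = 0.0109), a call lost on leaving out any 1 of the 4 DP libraries. The other Wnt3 member, chr11:103802993-103803393, measured 76.7 and 65.6 in WT DP, then 30.5 and 19.8 in WT SP, then 9.48 and 2.63 in OE SP, against 134 and 101 in KO DP, with both KO DP libraries above WT DP (log2 difference 0.67, SE 0.31, limma adjusted p = 0.261). In Wnt3a, chr11:59274648-59275048 measured 146 and 130.2 in WT DP, then 44.8 and 37.7 in WT SP, then 8.75 and 13.1 in OE SP, against 144 and 108 in KO DP. The member within 100 kb of Gsc, an organizer factor, measured 154 and 157 in WT DP, then 49.9 and 52.5 in WT SP, then 10.9 and 5.26 in OE SP, against 97.4 and 105 in KO DP, and that near Lefty2, a NODAL inhibitor, 387 and 401 in WT DP, then 173 and 175 in WT SP, then 52.5 and 67 in OE SP, against 375 and 342 in KO DP.

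WNT pathway genes held 22 members of 706 (3.12%), 4 each at Sfrp1 and Tcf7l2 and 2 each at Axin2, Lef1, Rspo3, Tcf7l1 and Wnt3. LEF1 and the TCF proteins carry the WNT signal to DNA. In Lef1, chr3:131118619-131119019 measured 437 and 415 in WT DP, then 106 and 111 in WT SP, then 27 and 25 in OE SP, against 364 and 310.2 in KO DP. The Tcf7l2 members did not move as 1 in the knockout. At chr19:55788472-55788872 the libraries measured 218 and 219 in WT DP, then 66.2 and 52.5 in WT SP, then 20.4 and 26.3 in OE SP, against 364 and 317 in KO DP, with KO DP above WT DP (log2 difference 0.62, SE 0.20, limma adjusted p = 0.102). At chr19:55794439-55794839 they measured 53.4 and 45.8 in WT DP, then 22.4 and 21.8 in WT SP, then 8.02 and 7.88 in OE SP, against 23.5 and 13.1 in KO DP, with KO DP called lower (log2 difference -1.26, SE 0.27, limma adjusted p = 0.0245), a call lost with DESeq2 and on leaving out any 1 of the 4 DP libraries. FGF genes held 8 of 334 (2.40%), 3 of them near Fgf3, a streak ligand. The only FGF call was near the receptor gene Fgfr1, at chr8:25491323-25491723, with 131 and 127 in WT DP, then 58 and 54.5 in WT SP, then 13.9 and 13.1 in OE SP, against 256 and 222 in KO DP (log2 difference 0.86, SE 0.19, limma adjusted p = 0.026). This region is also on chromosome 8, and its call was lost on leaving out any 1 of the 4 DP libraries. Notch pathway genes held 6 of 307 (1.95%), among them a region 71.5 kb from Hes1 with 249 and 281 in WT DP, then 134 and 118 in WT SP, then 12.4 and 22.3 in OE SP, against 298 and 228 in KO DP. BMP and TGF-beta genes held 8 of 568 (1.41%), such as one within 100 kb of Bmp2 with 154 and 173 in WT DP, then 58 and 73.4 in WT SP, then 3.65 and 6.57 in OE SP, against 139 and 153 in KO DP.

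Guidance genes, which encode ligands and receptors that steer cells and axons, held 46 members of 1092 (4.21%) at 18 of 36 genes, none at a gene end. Slit1 and Plxna4 had 6 each, Slit3 5, Sema6d 4, and Efnb1 and Ntn1 3 each. The Sema6d member at chr2:124639240-124639640 measured 518 and 533 in WT DP, then 208 and 214 in WT SP, then 18.2 and 26.3 in OE SP, against 433 and 368 in KO DP. The strongest in Slit1, at chr19:41738252-41738652, measured 613 and 640.4 in WT DP, then 223 and 224 in WT SP, then 40.9 and 38.1 in OE SP, against 548 and 548 in KO DP. A region 31.2 kb from Efnb1 measured 274 and 248 in WT DP, then 122 and 129.9 in WT SP, then 5.84 and 19.7 in OE SP, against 230.1 and 209 in KO DP. In the knockout 3 of the 46 were called lower, in Plxna4, Slit1 and Robo1, near the share of all members (6.29%, against 2.21% of all regions tested). edgeR called 3 lower and DESeq2 0, and limma kept none of the 3 on leaving out any 1 of the 4 DP libraries.

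Among mesenchyme genes, 8 of 311 regions (2.57%) were members, in or near Cdh2, Pdgfra, Zeb2, Cdh11 and Snai2. Within 10 kb of these genes 4.19% were members, against 1.59% of all regions. In Cdh2, the cadherin of mesoderm and neural cells, 1 member measured 271 and 295 in WT DP, then 101 and 84.3 in WT SP, then 15.3 and 5.26 in OE SP, against 268 and 241 in KO DP. Cdh11, a mesenchymal cadherin, had a member with 107 and 132 in WT DP, then 50.9 and 52.5 in WT SP, then 18.2 and 6.57 in OE SP, against 53.7 and 47.5 in KO DP (log2 difference -1.16, SE 0.29, limma adjusted p = 0.0493), a call lost with DESeq2, a pseudocount of 1, the replicate block, rescaling by median of ratios or on the 10000 highest regions, and on leaving out any 1 of the 4 DP libraries. Snai1, a repressor of epithelial genes, had a gene-end region of 1344 and 1257 in WT DP that fell to 684 and 604 in WT SP but measured 489 and 673 in OE SP, so it is no member. Matrix and adhesion genes held 14 of 705 (1.99%).

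Of the regions of the sort markers, 2 of 28 at Pdgfra and 2 of 43 at Kdr were members. Just outside Pdgfra, at chr5:75149925-75150325, the libraries measured 579.5 and 657 in WT DP, then 272 and 269.6 in WT SP, then 108 and 129 in OE SP, against 686 and 638 in KO DP. KO DP lay with WT DP. Both groups were sorted for PDGFRalpha, and the part of the sort in these values was not tested. A second, lower member lay within 10 kb of the gene. The start of Pdgfra, chr5:75151130-75151530, is no member, with 142 and 167 in WT DP, then 163 and 149.7 in WT SP, then 86.1 and 124 in OE SP, against 139 and 127 in KO DP. Kdr, whose protein was present on all cells sorted, had a member inside the gene at chr5:75954181-75954581 with 393 and 377 in WT DP, then 63.1 and 87.2 in WT SP, then 15.3 and 18.4 in OE SP, against 460.1 and 376 in KO DP. Its start region, chr5:75978321-75978721, measured 356 and 362 in WT DP, then 467 and 479.8 in WT SP, then 380.1 and 519 in OE SP, against 356 and 333 in KO DP and did not close. The region at the other end of Kdr, chr5:75933645-75934045, rose with induced Etv2. It measured 26.2 and 26.0 in WT DP, then 34.6 and 36.7 in WT SP, then 87.5 and 139.3 in OE SP, against 26.0 and 34.5 in KO DP. A second Kdr member lay 78.9 kb from the gene, with 57.3 and 65.6 in WT DP, then 30.5 and 23.8 in WT SP, then 10.9 and 9.20 in OE SP, against 68 and 63 in KO DP.

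Endothelial genes held 11 members of 600 (1.83%) and blood genes 6 of 273 (2.20%), near the share of all regions (1.92%). Within 10 kb of the genes the shares were 1.37% and 2.99%, against 1.59% of all regions. Blood genes were thus near the share of all regions only in the wider window. Besides Kdr, the endothelial members lay in or within 100 kb of Nrp1, Nrp2 and Ets2, with 2 each, and Ets1, Cdh5 (86.0 kb away) and Pecam1. A region 82995 bp from Nrp1, a VEGF co-receptor, chr8:128588471-128588871, measured 203 and 195 in WT DP, then 37.7 and 51.5 in WT SP, then 10.9 and 10.5 in OE SP, against 207 and 242 in KO DP. In Ets1, an endothelial ETS factor, chr9:32741464-32741864 measured 96.1 and 101 in WT DP, then 43.8 and 33.7 in WT SP, then 10.2 and 5.26 in OE SP, against 79.8 and 91.5 in KO DP. Near Zfpm1, the GATA cofactor FOG1, chr8:122277667-122278067 measured 662 and 653 in WT DP, then 285 and 256 in WT SP, then 79.5 and 118 in OE SP, against 627 and 550.3 in KO DP. In Runx1, the regulator of blood stem cell emergence, 3 members had WT DP means of 71.8 to 158 and OE SP means of 9.63 to 25. Of these 17, limma called 0 between KO DP and WT DP, with 0 at an unadjusted p below 0.05, and edgeR and DESeq2 called 0. By limma 6.29% of all members were called lower and 0.895% higher, against 2.21% and 1.72% of all regions tested.

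Cardiac genes held 7 of 534 (1.31%), 1 each at Actc1, Bmp2, Bmp4, Fgf10, Gata6, Tbx20 and Tbx3. Within 10 kb of these genes 0.324% were members, against 1.59% of all regions. Near Actc1, cardiac actin, chr2:114067095-114067495 measured 415 and 435 in WT DP, then 167 and 189 in WT SP, then 42.3 and 48.6 in OE SP, against 346 and 317 in KO DP. Near Tbx20, a cardiac T-box factor, chr9:24789482-24789882 measured 107 and 92.5 in WT DP, then 28.5 and 41.6 in WT SP, then 6.57 and 3.94 in OE SP, against 38.6 and 44 in KO DP (log2 difference -1.18, SE 0.25, limma adjusted p = 0.0242), a call lost with DESeq2, with a pseudocount of 1 and on leaving out any 1 of the 4 DP libraries. In Myh11, smooth muscle myosin, chr16:14265396-14265796 was among the strongest members with 1020.2 and 1001 in WT DP, then 354 and 369 in WT SP, then 154 and 146 in OE SP, against 946 and 802 in KO DP. Smooth muscle genes held 2 of 155 (1.29%), endoderm genes 4 of 311 (1.29%), neuroectoderm genes 6 of 247 (2.43%, 3 of them in Ncam1) and pluripotency genes 2 of 225 (0.889%). Hox genes held none of 168 and housekeeping genes none of 110. Counted over the 19 lists once, 154 of 6714 regions (2.29%) were members, and 11 of the 154 were called lower in KO DP and 1 higher. The shares over all members were 6.29% lower and 0.895% higher, and over all regions tested 2.21% and 1.72%. No list was tested against the others.

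Of the 79 members at gene ends, 5 (6.33%) were called lower and 1 (1.27%) higher in KO DP against WT DP, close to the shares of all members. Among all gene-end regions tested the shares were 2.58% and 0.969%. Among those of highest WT DP signal were the regions at Mesp2, Cd93, Tbx6 and Pdgfra. Over all 625 gene-end regions of the 19 lists, 4 were members, at Msgn1, Mesp2, Tbx6 and Pdgfra.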

How the data were processed

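ATAC-seq was run on 8 libraries, 2 in each of 4 groups, with paired ends of 75 bp per the labels. The submitters' processing notes name Bowtie2, MACS2, DiffBind 3.14.1 and build mm10. The role of each tool, duplicate removal and any Tn5 shift are not stated there. The table deposited by the authors holds a normalized signal for each region and library. All values (100%) were whole multiples of 1 step per library (tolerance 0.01 reads), which gave whole reads.

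Log2(value + 5) was fitted with limma 3.58.1 (R 4.3.3), using 4 group means, an empirical Bayes trend and 4 residual degrees of freedom, over 167573 regions whose mean reached 10. All 3241 members passed this filter. Calls are two-sided, at adjusted p below 0.05 (Benjamini-Hochberg across every region in the fit). The fit was also run on simulated reads with known changes in KO DP and the same spread in all groups. The wider spread of OE SP was not simulated, so that run cannot show how it affects the calls. Alternatives were edgeR 4.0.16 and DESeq2 1.42.0 on recovered reads, other scalings, pseudocounts and filters, a replicate block, the compared groups alone, and leaving out each library. The replicates' recovered reads differed by a chi-square of 1.15 per degree of freedom in WT DP, 1.21 in WT SP, 1.22 in KO DP and 4.34 in OE SP, more than sampling noise, and no libraries were merged.

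Each region was assigned to the closest protein-coding gene, up to 100 kb from its span, in RefSeq (GRCm38.p6). Promoters on chromosome 18 were not used here. Named members are the 10 largest summed falls, up to 3 per gene list, the 8 genes with most members, the 5 largest called rises and falls in KO DP against WT DP, the 5 strongest gene ends, regions at the thresholds, and members at Etv2, Kdr and Pdgfra. Some of these are not reported here. Other members at genes of the lists, in runs or at promoters were named after their values were seen. The members and lists were chosen with earlier results of these data known.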

Additional observations from a re-analysis of the deposited data

How the results depend on the processing

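The rule kept 5333 regions with a pseudocount of 1, 1022 with one of 20 and 403 at thresholds of -1.5, and 3051 to 3878 on leaving out single libraries. The lower calls in KO DP against WT DP (204) became 112 with DESeq2, 124 and 380 with pseudocounts of 1 and 20, 1010 with the compared groups alone, 29 to 42 without single KO DP or WT DP libraries, and 809 and 827 without OE SP replicate 1 or 2, an alternative chosen after seeing the data. The higher calls (29) became 104 with edgeR, 45 after median-of-ratios rescaling, 61 after quantile normalization, 47 after rescaling on the 10000 highest regions, 13 and 58 with pseudocounts of 1 and 20, 273 with the compared groups alone, 3 to 5 without single KO DP or WT DP libraries, and 185 and 190 without OE SP replicate 1 or 2. Against WT SP, lower calls (18) ran from 11 to 28 and higher calls (2557) from 1575 to 2917 on leaving out single libraries. The median difference of members from all regions there (1.31) became 1.44 with DESeq2, 1.43 with edgeR, and 1.42 and 1.05 with pseudocounts of 1 and 20. After rescaling on the 10000 highest regions, 49 members rather than 85 had a KO DP mean below WT SP. The cause of these shifts was not tested. None of the 19 named differences of KO DP from WT DP that were called changed sign under any alternative run, while 21 of the 94 that were not called did, all within 0.17 of 0 on the log2 scale. Of the 94 not called, 36 were called under at least 1 alternative run, so a missing call also depends on the setting. Replicate numbers did not pair the samples: correlations of deviations ran from -0.004 to 0.056, and a replicate block gave 182 lower and 25 higher calls against WT DP and 2519 higher calls against WT SP. The lowest members hold few reads in OE SP, with 27 at 3 reads or fewer over both libraries. With 5 reads added, the size of their second step is limited.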
